A study of Mus musculus with 72 samples.

Results

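Lhx1 is a single gene, and 4 of its transcripts were counted in mouse embryonic stem cells that either carried or lacked the nuclear pore protein Nup133. It is 1 of 45321 genes with a matched transcript and 1 of 18273 genes with enough counts to be tested. It was chosen by its measured difference between knockout and control cells, which had opposite signs on different days. That difference, and its change between days, is therefore given below as a description with no test. Polyadenylated RNA was sequenced from 18 samples, 3 for each of 6 groups of genotype and day, and 4 technical files per sample were summed. Controls were 2 biological replicates of HM1 cells (Nup133+/+, XY, 40 chromosomes) and the line #1A4 (Nup133+/+, Sox1gfp/+, XY, 40 chromosomes), which came from a blastocyst. Knockouts were lines #14 (Nup133-/-, XY, 40 chromosomes) and #19 (Nup133-/-, labelled as likely XY with 40 chromosomes), both made from HM1 with CRISPR/Cas9. The remaining knockout was merm #319 (Nup133merm/merm, Sox1gfp/+), a blastocyst-derived XX line with 42 chromosomes, including an extra chromosome 8 and an extra chromosome 12. Day 0 cells grew in serum with LIF on DR4 fibroblast feeders, which were depleted before RNA was taken. Day 2 cells had been moved to N2B27 medium on gelatin without LIF, and day 3 cells had received 1 µM all-trans retinoic acid for the last 24 h. Each knockout line is 1 line, so the spread between knockout samples is a spread between lines, and at each day the 2 HM1 samples are separate cultures of 1 line.

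Lhx1 (also called Lim1) encodes a transcription factor with a pair of LIM domains, which bind partner proteins, and a homeodomain, which binds DNA. LIM-homeodomain factors act in complexes held together by the adaptor Ldb1 and stabilised by single-stranded DNA binding proteins, while LMO proteins compete for Ldb1 and Rlim marks cofactors for degradation. In the mouse embryo Lhx1 works in the node and anterior mesendoderm, where it is needed for head formation, and later in the intermediate mesoderm that forms the nephric duct, in spinal interneurons and in motor neurons of the limb columns. Nup133 belongs to the Y-complex of the nuclear pore scaffold. Retinoic acid is a vitamin A derivative that acts through nuclear receptors and patterns the neural tube.

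The gene (ENSMUSG00000018698) lies at chr11:84518284-84525535 on the minus strand of GRCm38, and its longest transcript has 5 exons. The 250 bases before its start, at chr11:84525535-84525784 on the minus strand, are shown because a long noncoding RNA starts inside the same window on the opposite strand. The sequence is from RefSeq (GRCm38.p6), and the capitals mark the matches to a CCAAT box and to the cAMP response half-site.
Lhx1: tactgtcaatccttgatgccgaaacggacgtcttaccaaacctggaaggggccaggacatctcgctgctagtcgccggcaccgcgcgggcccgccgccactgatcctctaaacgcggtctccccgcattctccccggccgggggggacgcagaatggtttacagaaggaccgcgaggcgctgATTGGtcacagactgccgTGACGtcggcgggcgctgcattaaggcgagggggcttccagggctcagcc
GC content was 64.8% in this window, against a median of 52.4% over 32851 promoter windows of the same length. Searched on both strands, CCAAT had 1 match, written ATTGG on this strand and found in 33.8% of those windows, and TGACG had 1 match, found in 17.8%. No match was found for the nuclear receptor half-site AGGTCA (14.0% of windows), for 2 such half-sites in a direct repeat spaced by 5 bases (0.00913%), for the FOXH1 motif AATNCACA (3.18%), for TATAAA (12.4%), for the GC box GGGCGG (32.7%) or for the homeodomain core TAATTA (4.84%). A match describes letters only, and a missing match says only that the letters are not in this window.

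Depth ranged from 16466730 counts over genes (#19, day 2) to 54386782 (#14, day 3). The sample of lowest depth stood apart from the other 5 samples of day 2: it lay at -110.8 on the second principal component against -57.3 to -35.3. Its share of counts in unmatched transcripts was 2.46%, against 1.44% to 1.72% in the other 17 samples. Without it the log2 difference of Lhx1 at day 2, given below as -4.20, was -3.91. On the first principal component, merm #319 at day 2 lay at -25.2, against 6.34 to 16.8 in the other 5 samples of that day. Nup133 itself measured 14.3 to 37.1 CPM (counts per 1000000 counts, after scaling) in the 9 knockout samples and 180 to 323 CPM in the 9 control samples. Stem cell markers (7 genes, such as Pou5f1 and Nanog) summed to 3710 to 3943 CPM in controls and 4225 to 5270 CPM in knockouts at day 0, so the labelled cell type carried its markers. These ranges did not overlap. All 7 genes were higher in knockouts, and 0 were called (edgeR; 0.854% of all genes called in either direction). Fibroblast markers (8 genes) summed to 93.5 to 148 CPM in controls and 65.4 to 128 CPM in knockouts at day 0, overlapping ranges. The sums of the primitive endoderm markers (7 genes) at day 3 did not overlap, at 50.7 to 58.5 CPM in controls and 66.5 to 71.3 CPM in knockouts. Among single tested genes, 17.6% had all knockouts above all controls at that day. By gene, 4 of the 7 markers were higher and 3 lower, with Gata4 and Pdgfra called higher (edgeR; 2.75% of all genes). Neural progenitor markers (5 genes) at day 3 summed to 283 to 333 CPM in controls and 270 to 909 CPM in knockouts. By gene, 4 of the 5 were higher and 1 lower, with a median log2 difference of 0.70. Pax6 and Zic1 were called higher at day 3 (2.75% of all genes) and Zic1 at day 2 (0.635%; edgeR). No marker was at 0 in all samples of a group, and the part of these cell types in the Lhx1 values was not tested.

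Lhx1 was low in every knockout sample of days 0 and 2 and high in every knockout sample of day 3, while the controls lay between 4.87 and 15.5 CPM on all days. At day 0 the controls measured 5.64 and 14.4 CPM in the HM1 replicates and 6.22 CPM in #1A4. The knockouts measured 0.240 CPM in #14, 0.186 CPM in #19 and 0.184 CPM in merm #319, from 7, 8 and 9 counts. All 3 knockout samples were thus below all controls, as 9.70% of all tested genes were at that day. At day 2 the controls were tightly grouped at 4.88, 5.65 and 4.87 CPM. The knockouts measured 0.285 CPM in #14 and 0.475 CPM in merm #319, and #19 had no count, which at its depth allows up to 0.226 CPM (3 counts). The groups again did not overlap, as for 11.7% of all tested genes in that direction. At day 3 the order was reversed. Controls measured 6.49, 5.11 and 15.5 CPM, and knockouts 24.6 CPM in #14, 34.1 CPM in #19 and 68.1 CPM in merm #319. All knockouts were above all controls at this day, a position shared by 17.6% of tested genes. Because RNA was taken from whole cultures, fewer cells that express Lhx1 and less Lhx1 RNA per cell cannot be told apart.

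**Figure D1:**
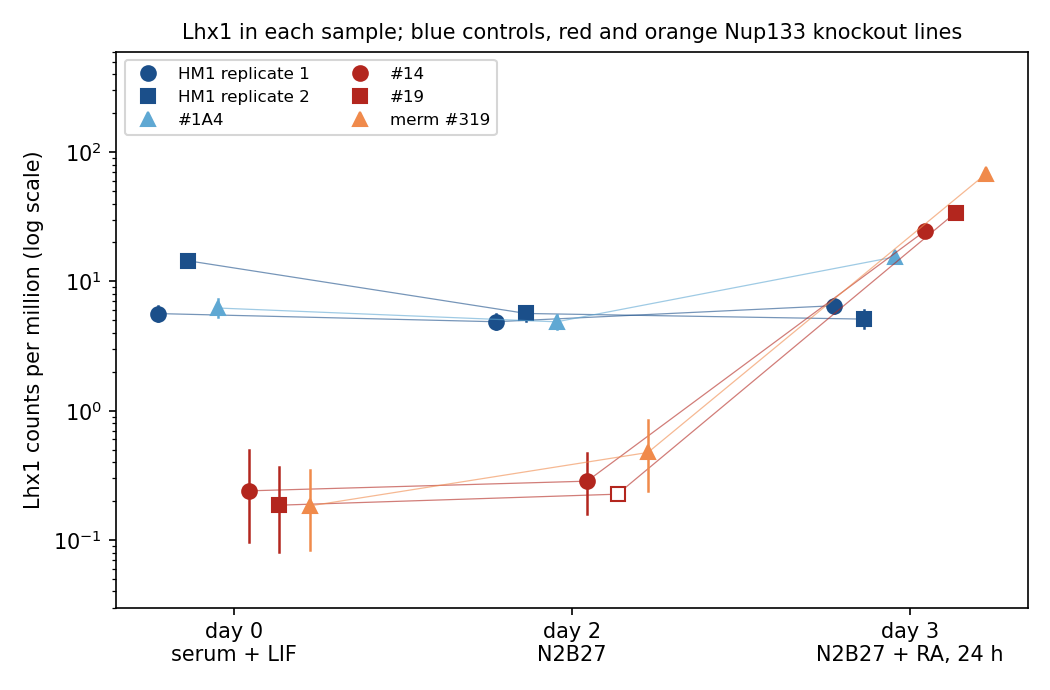
Lhx1 level in CPM (log axis) in each of the 18 samples by day, with thin lines joining the samples of 1 line or HM1 replicate and bars giving exact 95% counting intervals; the open square is #19 at day 2, which had no count and is drawn at its limit of 0.226 CPM. The 3 knockout lines lie below 0.5 CPM at days 0 and 2 and between 24.6 and 68.1 CPM at day 3, and the controls lie between 4.87 and 15.5 CPM throughout.

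As group means, the controls held 8.77 ± 4.92 CPM at day 0, 5.13 ± 0.449 CPM at day 2 and 9.02 ± 5.62 CPM at day 3 (SD, n = 3 each). The knockouts held 0.203 ± 0.0319, 0.254 ± 0.239 and 42.3 ± 22.8 CPM on the same days (SD, n = 3 each). The mean was thus 43.2-fold lower in knockouts at day 0, 20.2-fold lower at day 2 and 4.69-fold higher at day 3. The edgeR model gave knockout-to-control log2 fold changes of -5.53 ± 0.60 (SE), -4.20 ± 0.59 and 2.24 ± 0.46 for the 3 days. Among 18273 tested genes these were the 10th lowest, the 22nd lowest and the 189th highest values. The change in the log2 difference was 6.44 ± 0.75 from day 2 to day 3 and 7.78 ± 0.76 from day 0 to day 3, each the 3rd highest of all genes. Lhx1 varied more between samples of a group than most genes did: its biological coefficient of variation in the model was 0.379, higher than that of 86.6% of tested genes and above the common value of 0.246.

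Ordered by level, the knockouts at day 3 came first and stood clear of every other group. The control groups of days 3, 0 and 2 followed, and their ranges overlapped with each other (5.11 to 15.5, 5.64 to 14.4 and 4.87 to 5.65 CPM). The knockouts of days 2 and 0 came last, and their ranges overlapped as well (0 to 0.475 and 0.184 to 0.240 CPM). At day 3 the highest control, #1A4 at 15.5 CPM, lay closest to the lowest knockout, #14 at 24.6 CPM.

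Each line set against the controls of its own origin gave the same direction. At day 0, Lhx1 was 41.8-fold lower in #14 and 54.0-fold lower in #19 than the HM1 mean, and 33.9-fold lower in merm #319 than in #1A4. At day 2 it was 18.5-fold lower in #14, at least 23.3-fold lower in #19 (against the limit of 3 counts) and 10.2-fold lower in merm #319. At day 3 it was 4.25-fold, 5.88-fold and 4.40-fold higher in the same 3 lines. At day 3 the lines differed less in this ratio than in their absolute levels. The blastocyst-derived line held 2.67 times the HM1 level among controls at day 3 (15.5 against 5.80 CPM), and merm #319 held 2.32 times the mean of #14 and #19 among knockouts (68.1 against 29.4 CPM). At day 0 these ratios were 0.620 and 0.862, so the higher level of the blastocyst-derived lines was not present at that day. At day 2 they were 0.925 in controls and 3.33 in knockouts, the latter from 11 counts in merm #319 against 15 in #14 and 0 in #19. The 2 HM1 cultures differed from each other by 2.56-fold at day 0, which is close to the gap between origins at day 3. With 1 blastocyst-derived line per genotype, that gap has no replicates.

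The steps of Lhx1 between days carry no p, since the same samples entered the choice of the gene. In controls its log2 change from day 0 to day 2 was -0.82 ± 0.45 (SE), with a lower value at day 2 in 3 of 3 control series, and the ranges of the days overlapped. Without HM1 replicate 2, the culture with the highest level at day 0, this step was -0.27. From day 2 to day 3 the log2 change in controls was 0.69 ± 0.45 (SE). It was uneven, at 3.18-fold higher in #1A4, 1.33-fold higher in HM1 replicate 1 and 1.11-fold lower in HM1 replicate 2. Without #1A4 the fitted step was 0.14 on the log2 scale.

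In the knockouts the step from day 0 to day 2 had a log2 value of 0.52 ± 0.74 (SE). It was 0.05 without merm #319, 0.88 without #19 at all days and 0.82 without #19 at day 2 alone. The step from day 2 to day 3, across the retinoic acid exposure, was 7.12 ± 0.63, the 42nd highest of all genes. It amounted to 86.4-fold in #14, at least 151-fold in #19 and 143-fold in merm #319. All 9 genes of a list of retinoic acid responders rose over this interval in both genotypes (edgeR, adjusted p under the threshold of 0.05; 12.5% of all genes rose in controls and 17.6% in knockouts). Their median log2 change was 4.41 in controls and 4.87 in knockouts, against 0.00 for all tested genes in each.

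All 4 transcripts of Lhx1 followed the same course. The longest, Lhx1-201 (3846 nt, 5 exons, protein coding), had 7827 counts in all and at least 1 count in 67 of 72 files, and the values above are from it. Lhx1-204 (1201 nt, protein coding) had 2844 counts, Lhx1-203 (766 nt, a retained intron) had 1695 and Lhx1-202 (382 nt, protein coding) had 921. Reads were counted for every transcript they overlapped, so these are largely the same reads. The counts of the shorter transcripts were 36.3%, 21.7% and 11.8% of the longest one's, near their relative lengths of 31.2%, 19.9% and 9.93%. In the groups with enough reads the share of Lhx1-204 barely moved: it was 39.8%, 34.0% and 37.6% in controls at days 0, 2 and 3, and 35.7% in knockouts at day 3. The knockouts at day 0 had 24 counts of Lhx1-201 and 7 of Lhx1-204, and at day 2 they had 26 and 12, too few to compare shares.

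**Figure D2:**
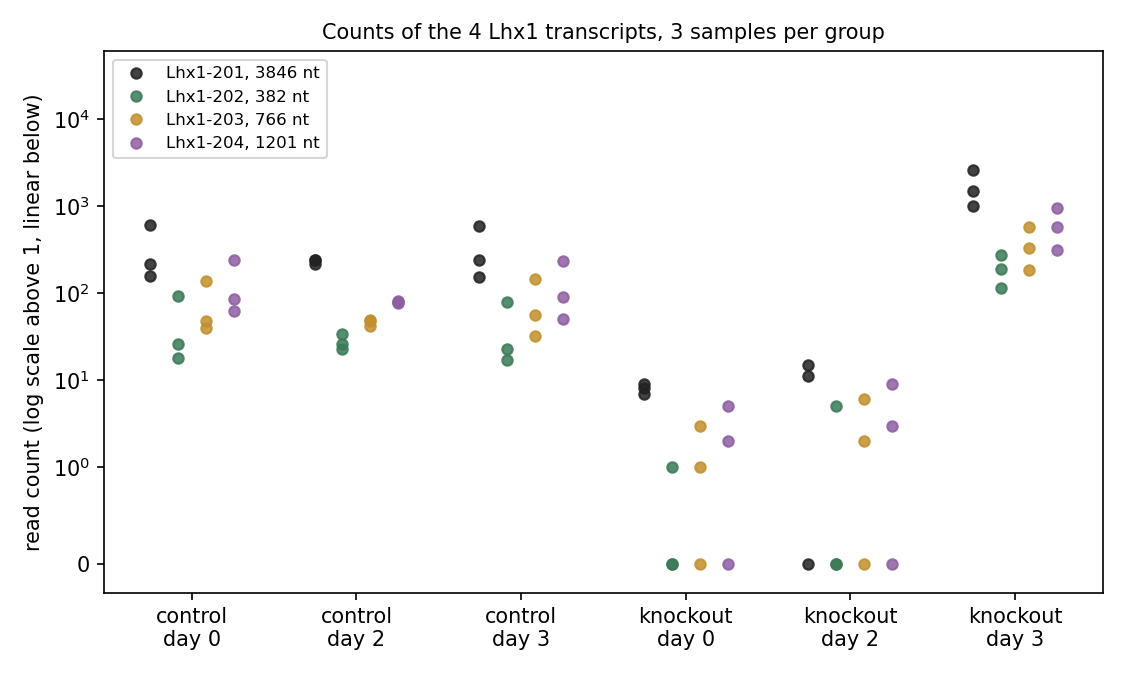
Read counts of the 4 Lhx1 transcripts (axis logarithmic above 1 and linear below) in the 3 samples of each group. Every transcript has 15 counts or fewer in each knockout sample of days 0 and 2 and its highest counts in the knockouts of day 3.

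Lhx1os, a long noncoding RNA, starts 125 bases from the start of Lhx1 and runs away from it on the plus strand, inside the promoter window printed above, with no overlapping base. Counts in the files followed strand. In 20 single-exon transcripts that lie inside exons of the opposite strand, the median count per base was 0.002 of that of the enclosing gene. In controls Lhx1os measured 0.0260, 0.0961 and 0.0798 CPM at day 0 (1, 4 and 2 counts), and the knockouts had 1 count in all. At day 3 the controls measured 0.565 and 0.635 CPM in the HM1 replicates and 1.51 CPM in #1A4, and the knockouts 1.21, 1.79 and 3.47 CPM in #14, #19 and merm #319. The control #1A4 lay above #14, so the groups overlapped at day 3. Lhx1os rose from day 2 to day 3 in controls (log2 change 2.25 ± 0.51 SE, adjusted p = 0.00515, edgeR quasi-likelihood test) and in knockouts (5.73 ± 0.68, adjusted p = 2.4e-05), in 3 of 3 series each. The rise in controls did not pass without HM1 replicate 1 or without #1A4 (adjusted p = 0.0636 and 0.0923, edgeR). Between genotypes its log2 differences were -2.71 ± 1.08, -2.23 ± 0.80 and 1.25 ± 0.44 at days 0, 2 and 3, and none passed the test (adjusted p = 0.335, 0.142 and 0.110, edgeR). Over the 18 samples its correlation with Lhx1 in log2 CPM was 0.79, a description of samples that share lines and libraries.

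No tested gene around Lhx1, Lhx1os included, was called by edgeR on all 3 days, while DESeq2 called Dusp14 lower on each. None was called higher on any day by either method. Of 20 annotated neighbours within 500 kb, 14 were tested, and 0 were called in either direction at day 0, 3 were called lower at day 2 and 1 was called lower at day 3 (edgeR; all genes called, 0.854% in either direction at day 0, and lower, 0.963% at day 2 and 2.44% at day 3). At an unadjusted p below 0.05, 4, 8 and 6 neighbours were lower at days 0, 2 and 3 and 0, 0 and 1 higher, and DESeq2 called 2, 6 and 5, all lower. The share of all genes at an unadjusted p below 0.05 or by DESeq2 was not counted, here or for the lists below. Such counts therefore cannot be set against the edgeR shares. On one side, Aatf, a transcription and ribosome biogenesis factor 4762 bases from Lhx1, had log2 differences of -0.15, 0.05 and 0.09 at days 0, 2 and 3. Next came Acaca (acetyl-CoA carboxylase, the first committed enzyme of fatty acid synthesis), which was lower at day 2 by -0.66 ± 0.15 (adjusted p = 0.0398, edgeR), and Tada2a (an adaptor of histone acetyltransferase complexes), which edgeR called on no day and DESeq2 called lower at days 2 and 3. On the other side, past Lhx1os, Mrm1 (a mitochondrial rRNA methyltransferase) was lower at day 3 by -0.68 ± 0.18 (adjusted p = 0.0407, edgeR), and Dhrs11 was not called on any day. Dusp14 (a dual specificity phosphatase; -1.22 ± 0.26, adjusted p = 0.0324) and Ggnbp2 (-0.53 ± 0.12, adjusted p = 0.0432) were the other neighbours called at day 2 by edgeR. For Dusp14 the log2 differences at days 0 and 3 were -1.10 ± 0.26 and -0.86 ± 0.25 (adjusted p = 0.0637 and 0.0593, edgeR). None of the 4 edgeR calls was stable: those of Dusp14, Acaca, Ggnbp2 and Mrm1 were each lost when any 1 of the 3 control series was left out, at adjusted p of up to 0.233, 0.302, 0.351 and 0.223 (edgeR). The call of Acaca was also lost without #19, and that of Mrm1 without #14 or without #19.

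**Figure D3:**
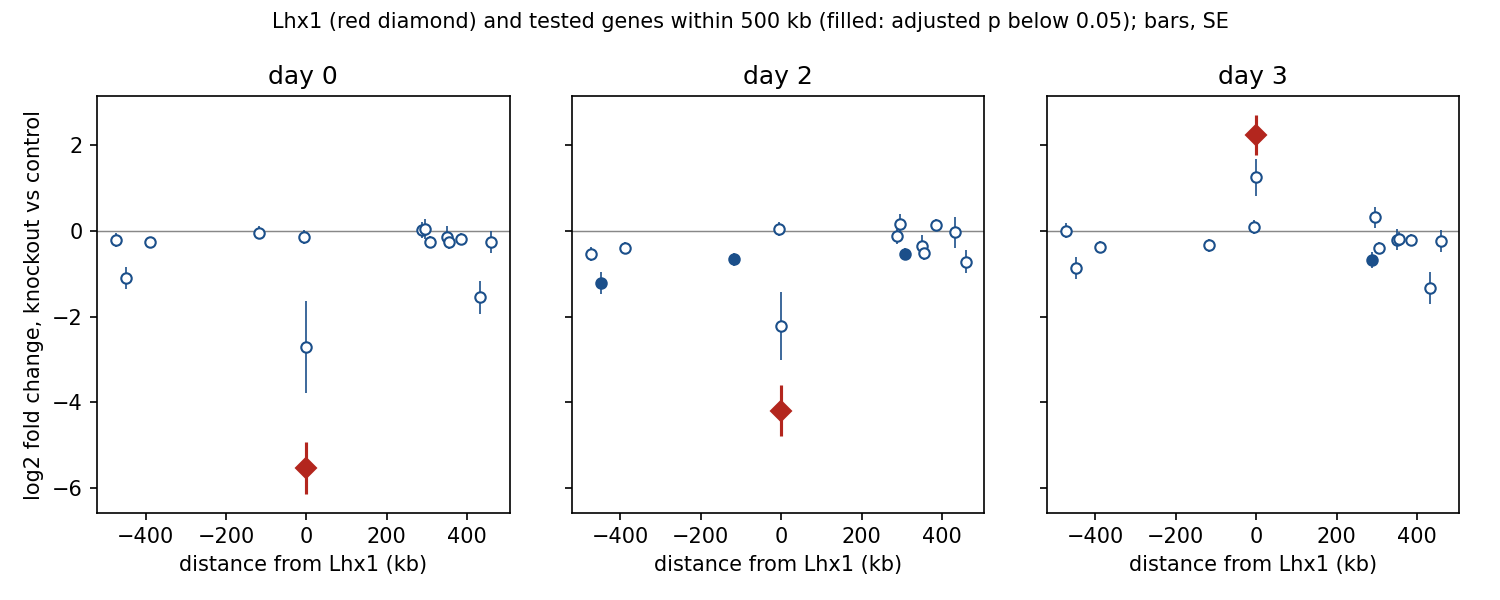
Log2 fold change of knockout against control at days 0, 2 and 3 for Lhx1 (red diamond) and the 14 tested genes within 500 kb, by distance from Lhx1 in kb, with bars of 1 SE and filled points for adjusted p below 0.05 (edgeR). Lhx1 stands at -5.53, -4.20 and 2.24, and the point beside it is Lhx1os at -2.71, -2.23 and 1.25.

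No other LIM-homeodomain gene was called lower on any day. Of 11 family members 9 were tested, and 0 were called at day 0, 0 at day 2 and 2, both higher, at day 3, where 2.75% of all genes were called higher (edgeR). At an unadjusted p below 0.05 the counts were 2, 5 and 5, and DESeq2 called 0, 2 and 3. The median log2 difference of the family was 0.44, 1.10 and 1.23 at days 0, 2 and 3, against 0.01, 0.02 and 0.02 for all tested genes. Lhx2, a factor of eye and forebrain development, was higher in knockouts at day 3 by 1.23 ± 0.34 (SE; adjusted p = 0.0475, edgeR), with 3.80 to 5.70 CPM against 1.77 to 2.61 CPM in controls. Its log2 differences at days 0 and 2 were no smaller, at 1.53 ± 0.47 and 1.34 ± 0.38, and were not called (adjusted p = 0.161 and 0.0825, edgeR). Isl1, which specifies motor neurons, was higher at day 3 by 1.03 ± 0.26 (adjusted p = 0.0364, edgeR), at a mean 2.02 times that of controls, and without overlap of the groups. Its log2 difference was 0.15 at day 0 and already 1.10 ± 0.28 at day 2 (adjusted p = 0.0575 at day 2, edgeR). DESeq2 called both genes higher at day 2. The edgeR call of Lhx2 at day 3 was lost without any 1 of the 3 control series, without #14 or without #19 (adjusted p = 0.0700 to 0.252, edgeR). That of Isl1 was lost without any 1 control series, without #14 or without merm #319 (adjusted p = 0.0526 to 0.204, edgeR). Lhx5, the closest relative of Lhx1, held 0.120 to 0.208 CPM in controls and 0.673 to 0.883 CPM in knockouts at day 0, a difference opposite in sign to that of Lhx1 that did not pass the test (2.20 ± 0.70, adjusted p = 0.188, edgeR). The other members with the most counts were Lmx1b and Lhx6, and neither was called on any day. As levels per kb of transcript, Lhx1 at 2.28 CPM per kb in controls at day 0 exceeded the next member, Lhx6, at 0.596 CPM per kb. In knockouts at day 3 the levels were 10.99 CPM per kb for Lhx1 and 1.73 CPM per kb for Lhx2. In knockouts at day 0 Lhx1 was at 0.0528 CPM per kb, below the 0.278 CPM per kb of Lhx5.

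Among the genes whose proteins build LIM complexes, 1 differed between genotypes at the threshold of the test. Ldb1 measured 176 to 243 CPM over all samples of day 0 and 92.7 to 121 CPM over all samples of day 3, with log2 differences of 0.05, 0.27 and 0.06 at days 0, 2 and 3, none called. Of 10 cofactor genes, 0 were called at days 0 and 2, and 1 was called lower at day 3 (2.44% of all genes; edgeR). At an unadjusted p below 0.05 the counts were 1, 1 and 3, and DESeq2 called 0, 1 and 2. That gene, Ssbp4, a single-stranded DNA binding protein, was lower in knockouts at day 3 by -1.24 ± 0.25 (adjusted p = 0.0118, edgeR), with 6.18 to 15.5 CPM against 24.5 to 28.1 CPM. Without HM1 replicate 1, HM1 replicate 2 or #1A4 its adjusted p was between 0.0538 and 0.112 (edgeR). The members with the most counts, Rlim and Ssbp3, were not called on any day. The list median was -0.06, 0.23 and 0.06 at days 0, 2 and 3.

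Several genes of the primitive streak, node and anterior mesendoderm, where Lhx1 acts in the gastrula, were lower in knockouts before retinoic acid was added. Of 15 listed genes, all tested, 5 were called lower at day 0 (0.788% of all genes) and 5 at day 2 (0.963%) with 0 called higher, and at day 3 there was 1 call in each direction (edgeR). Both at an unadjusted p below 0.05 and by DESeq2, 0 genes of the list were higher at days 0 and 2. On the 3 days the list median was -1.47, -1.16 and 0.20. Before retinoic acid, at day 0, the T gene (brachyury, a streak and notochord factor) was lower by -3.72 ± 0.55 (adjusted p = 0.00414), Mixl1 (a streak homeodomain factor) by -4.21 ± 0.40 (adjusted p = 7.54e-05) and Foxa2 (a node and endoderm factor) by -1.99 ± 0.39 (adjusted p = 0.0198, all edgeR). Cer1, a secreted Nodal and BMP antagonist, had 13, 36 and 18 counts in controls and none in the knockouts at day 0, at least 8.22-fold lower against a limit of 3 counts per library (adjusted p = 0.000666, edgeR). At day 2 it averaged 4.37 CPM in controls, and the knockouts held 0.0432 to 0.133 CPM (adjusted p = 0.000309, edgeR). At day 3 it was near the detection limit in both groups, at 2 counts in each control and 3 to 14 counts in the knockouts, and was not called (adjusted p = 0.187, edgeR).

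Shh, the signal of notochord and floor plate, was lower in knockouts at day 2, with 98, 102 and 37 counts in controls against 2, 0 and 0 (adjusted p = 0.000371, edgeR). It was still lower at day 3, at 0.807 to 2.07 CPM against 0.103 to 0.281 CPM (-2.99 ± 0.46, adjusted p = 0.00317, edgeR). Shh therefore kept 1 direction on both days, unlike Lhx1. Dkk1, a Wnt inhibitor of anterior mesendoderm, was lower at day 2 by -3.27 ± 0.72 (adjusted p = 0.0351, edgeR), and T was lower at that day by -3.08 ± 0.58 (adjusted p = 0.0150, edgeR). The 2 genes of the list with the most counts, Otx2 and Nodal, were not called on any day, and Nodal in merm #319 at day 2 measured 185 CPM against 17.2 to 31.9 CPM in the other 5 samples. The calls of Mixl1 and Cer1 at day 0 and of Cer1 and Shh at day 2 held in all 6 fits that left out 1 line or HM1 replicate. T at day 0 and Shh at day 3 were lost without HM1 replicate 2 (adjusted p = 0.0916 and 0.0655, edgeR). T at day 2 was lost without HM1 replicate 1, HM1 replicate 2 or #19 (adjusted p up to 0.162, edgeR), Dkk1 without either HM1 replicate or #14 (up to 0.253), and Foxa2 without either HM1 replicate, #14 or #19 (up to 0.252).

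Frzb, a secreted Wnt antagonist of the same list, was called in knockouts on all 3 days, with the higher level at day 3 only (edgeR). Cer1 had the same order of groups on the 3 days, with 14 counts or fewer in every sample of day 3 and no call there. Frzb measured 0.838 to 2.08 CPM in controls and 0.224 to 0.274 CPM in knockouts at day 0. At day 2 it measured 1.07 to 2.07 CPM against 0.226 to 0.646 CPM. At day 3 it measured 1.87 to 2.73 CPM in controls and 10.7, 16.5 and 6.42 CPM in #14, #19 and merm #319. The groups did not overlap on any day, and the log2 differences were -2.57 ± 0.40, -1.75 ± 0.39 and 2.10 ± 0.34 (adjusted p = 0.00530, 0.0351 and 0.00469, edgeR). In knockouts Frzb rose from day 2 to day 3 (log2 change 4.55, adjusted p = 1.2e-06, edgeR), and in controls its step of 0.70 did not pass (adjusted p = 0.163, edgeR). Its calls at days 0 and 3 were lost without either HM1 replicate, and that of day 0 also without #14, with adjusted p of up to 0.0778 and 0.0955 (edgeR). At day 2 the call held only without merm #319, and the adjusted p reached 0.259 without another line or replicate and was 0.0620 without #19 at day 2 alone (edgeR).

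In knockouts at day 3, 2 genes of the nephric duct and 2 of the spinal cord, later sites of Lhx1, were higher. Of 10 intermediate mesoderm and nephric duct genes, 0 were called at days 0 and 2 and 2 were called higher at day 3, where 2.75% of all genes were (edgeR; 3, 5 and 3 at an unadjusted p below 0.05, and 1, 2 and 2 by DESeq2). Pax2 (a renal and hindbrain factor) was higher at day 3 by 1.70 ± 0.39 (adjusted p = 0.0225, edgeR), with 1.24 to 4.45 CPM against 0.534 to 0.781 CPM. The Pax2 difference was no smaller before differentiation. Its day 0 value of 2.08 ± 0.49 missed the edgeR threshold (adjusted p = 0.0602), while DESeq2 called it higher. The day 2 value was 1.32 ± 0.53 (adjusted p = 0.182, edgeR). On both earlier days the groups overlapped. From day 0 to day 3 the difference changed by -0.38 ± 0.59, which did not pass (adjusted p = 0.903, edgeR). Ret, a receptor of nephric duct and neurons, was higher at day 3 as well (adjusted p = 0.0142, edgeR), with 12.6 to 19.7 CPM against 6.86 to 7.71 CPM. DESeq2 also called Ret higher at day 2, where its log2 difference was 0.77 ± 0.24 (adjusted p = 0.105, edgeR). Wt1, a factor of the developing kidney and gonad, was not called on any day. The list median was 0.45, 0.69 and 0.38 on the 3 days.

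Of 14 spinal cord genes 12 were tested, with 0 called at day 0, 1 higher at day 2 (0.635% of all genes) and 2 higher at day 3 (2.75%; edgeR), and a list median of 0.17, 0.49 and 1.18. At an unadjusted p below 0.05 the counts were 1, 4 and 8, and DESeq2 called 0, 2 and 3. Prdm13, a factor of dorsal interneuron choice, measured 0.242 to 0.416 CPM in controls and 5.17, 10.5 and 0.828 CPM in #14, #19 and merm #319 at day 3 (3.93 ± 0.75, adjusted p = 0.0105, edgeR). Pou4f1, a sensory and dorsal interneuron factor, measured 5.81 to 6.46 CPM in controls and 12.7 to 19.1 CPM in knockouts (1.26 ± 0.20, adjusted p = 0.00418, edgeR). Foxd3, which is expressed both in pluripotent cells and in a ventral interneuron class, was higher at day 2 by 1.63 ± 0.34 (adjusted p = 0.0258, edgeR), while Epha4, an axon guidance receptor, was not called on any day. Without either HM1 replicate, Pax2, Ret, Prdm13, Pou4f1 and Foxd3 all lost their calls (adjusted p up to 0.149, 0.154, 0.118, 0.0868 and 0.220, edgeR). Pax2 and Foxd3 lost theirs also without #1A4, and Pax2 without #14. Leaving out #19 at day 2 alone, the sample with the lowest depth, raised the calls over all 69 genes of the 6 lists at day 3 from 10 to 21, and leaving out merm #319 raised them to 20. Without HM1 replicate 1 there was 1 call, and without HM1 replicate 2 there were 0 (18 at an unadjusted p below 0.05, edgeR). The share of all genes called in these fits was not counted, so whether the changes are particular to the lists cannot be said.

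**Figure D4:**
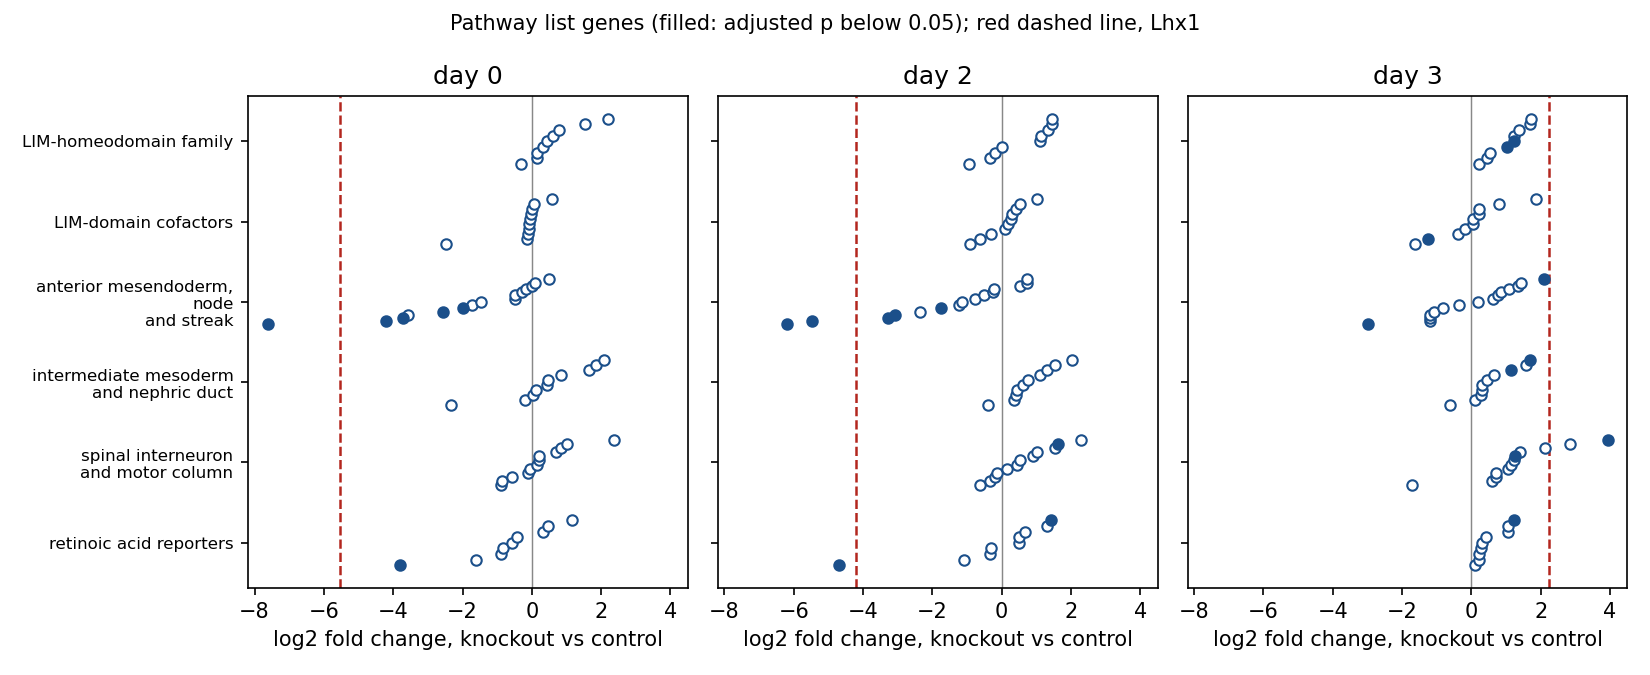
Log2 fold change of knockout against control at days 0, 2 and 3 for each tested gene of the 6 lists, with filled points for adjusted p below 0.05 (edgeR) and a red dashed line at the value of Lhx1. The median of the mesendoderm list is -1.47, -1.16 and 0.20 at the 3 days, and that of the LIM-homeodomain family is 0.44, 1.10 and 1.23.

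Among the retinoic acid responders, Cyp26a1, the enzyme that degrades retinoic acid, also followed Lhx1. It measured 6.21 to 13.8 CPM in controls and 0.465 to 0.891 CPM in knockouts at day 0. At day 2 the controls held 4.28 to 5.32 CPM and the knockouts 0.266 CPM in #14, 0.130 CPM in merm #319 and no count in #19. At day 3 it was at 59.8 to 68.3 CPM in controls and 137, 120 and 195 CPM in #14, #19 and merm #319. The log2 differences were -3.80 ± 0.37, -4.71 ± 0.46 and 1.24 ± 0.30 (adjusted p = 7.54e-05, 0.000225 and 0.0282, edgeR). In controls the untested log2 step of Lhx1 from day 2 to day 3 was 0.69 ± 0.45 (SE). Cyp26a1 rose over that interval by 3.72 in controls and 9.67 in knockouts (adjusted p = 1.8e-06 and 4.18e-09, edgeR). The calls of days 0 and 2 held in all 6 fits that left out a line or HM1 replicate, and that of day 3 held only without #19 (adjusted p up to 0.170 otherwise, edgeR). Crabp2, a retinoic acid carrier and the gene of the list with the most counts, was not called on any day.

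Over all tested genes, 22 (0.12%) had a log2 difference of at most -1 at days 0 and 2 and of at least 1 at day 3, Lhx1 among them by the way it was chosen. No call is given for Lhx1, and of the rest only Frzb and Cyp26a1 had an edgeR call on each day. For 18 genes (0.0985%), Lhx1 included, the knockouts lay below all controls at days 0 and 2 and above all at day 3. Since genes enter these counts by that pattern, their values are a description. A test of the change in the difference between 2 days was passed by 4 genes (0.0219%) from day 0 to day 2, 7 genes (0.0383%) from day 2 to day 3 and 78 genes (0.427%) from day 0 to day 3 (edgeR). Lhx1 is not counted as a result of this test, since it was chosen for that change. Apart from genes already named, the 22 included Lgr5 (a receptor for R-spondins), whose differences were -4.07, -1.39 and 1.44, and Rspo3 (an R-spondin), at -3.13, -1.62 and 1.63. They also included the transcription factors Sp5 (-1.96, -2.56 and 1.70) and Nkx1-2 (-1.86, -2.30 and 1.55) and the netrin receptor gene Unc5c (-1.46, -1.16 and 1.71). Nkx1-2 at day 3 measured 57.3 CPM in merm #319 and 8.18 and 15.1 CPM in #14 and #19, against 4.11 to 10.3 CPM in controls. Kcnb2, a potassium channel gene, had 1 count in each HM1 replicate and none elsewhere at day 0, and Sprr2a3 had 9 counts in merm #319 and none in the other knockouts at day 3, so their place in this set rests on few reads.

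The gene whose level was most like that of Lhx1 over the 18 samples was Slco5a1, an organic anion transporter family member, with a Pearson correlation of 0.93 in log2 CPM. Cyp26a1 (0.93), Frzb (0.91) and St8sia4 (a polysialyltransferase; 0.89) followed, of 13967 candidate genes with a median correlation of 0.07. Slco5a1 had a similar order of samples with a far smaller range. Its mean was 8.60 CPM in controls and 4.10 CPM in knockouts at day 0, 7.71 against 3.91 CPM at day 2, and 13.5 against 14.8 CPM at day 3. St8sia4 measured 0.494 to 0.697 CPM in controls and 0.116 to 0.286 CPM in knockouts at day 0, and 1.07 to 1.69 against 1.63 to 3.78 CPM at day 3. For both genes the groups overlapped at day 3. The remaining 6 of the 10 closest genes were gamma protocadherins (Pcdhga1, Pcdhga10, Pcdhgc5, Pcdhgb1, Pcdhga5 and Pcdhgb8; 0.88 to 0.87), which share their last exons and so count the same reads. The 18 points share lines, libraries and days, and the correlations carry no test.

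**Figure D5:**
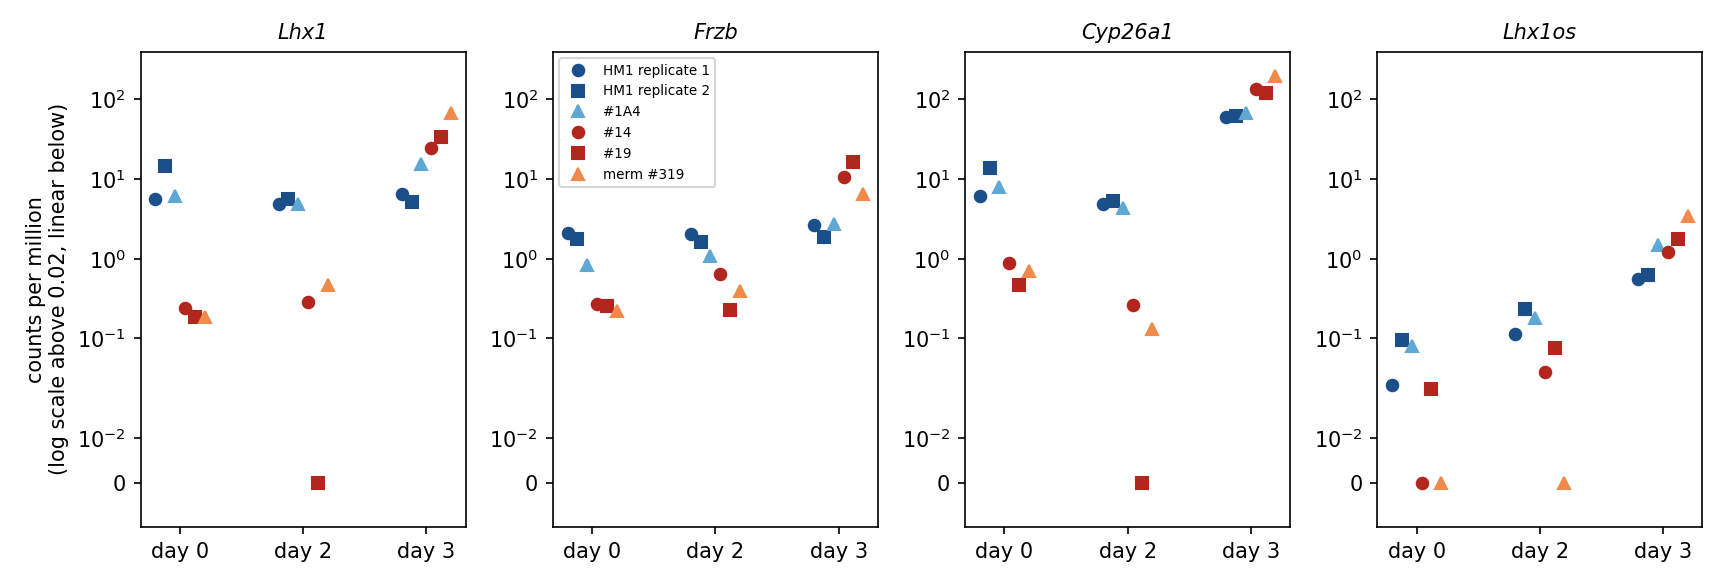
Level in CPM (axis logarithmic above 0.02 and linear below) of Lhx1, Frzb, Cyp26a1 and Lhx1os in each of the 18 samples by day; blue symbols are controls, red and orange symbols knockout lines. In the first 3 panels the knockouts lie below all controls at days 0 and 2 and above all controls at day 3, and for Lhx1os the groups overlap at day 3.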

How the data were processed

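Reads were processed by the submitters with bcl2fastq 2.17.1.14, STAR 2.4.0k, SAMtools and HTSeq on mm10, per the submitters' processing notes. The authors deposited raw read counts per Ensembl transcript in 72 files, and libraries were stranded and polyA-selected per the labels' protocols. Of 110379 transcript identifiers 108214 matched GENCODE M21, and a gene was taken as its transcript with most counts, since reads overlapping several transcripts were counted for each. The 4 technical files of a sample differed by no more than sampling noise (chi-square per degree of freedom 1.01 to 1.03 over genes) and were summed. Counts were fitted with edgeR 4.0.16 (R 4.3.3; TMM, filterByExpr, robust quasi-likelihood F test) on the 6 groups with genetic background (HM1 or blastocyst) as a term, leaving 11 residual degrees of freedom. Adjusted p is Benjamini-Hochberg over 18273 genes, called below 0.05. CPM uses TMM-scaled library sizes. Correlations used log2 CPM with a prior count of 2. Intervals and limits cover counting error only. Alternatives included DESeq2 1.42.0. The fit was also run on simulated independent counts with 1 common spread for all genes, and no result given here rests on that run.

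Lhx1, the gene lists and the tests were chosen with earlier results of these data known. The steps of Lhx1 between days were to be tested but carry no p here, because their samples entered the choice of the gene. Named genes are, per list, those called on any day (the 6 of largest change; the 7th mesendoderm gene, Foxa2, was added after its value was seen) and the 2 most abundant, with Lhx5, Ldb1, the 3 nearest tested neighbours on each side, the 10 genes closest in correlation, and up to 12 genes with a group mean of at least 1 CPM that share the fold pattern. Some genes that this rule names are not reported here. Called neighbours further off were named after their values were seen. Samples of 1 line or HM1 replicate pair across days because they come from the same cells: in 16 of 18 pairs their deviations from the group means correlated above 0.1 (range -0.088 to 0.400). The main fit did not pair them, so the printed tests of steps between days are unpaired. Results with pairing are given below only for the steps of Lhx1 and Lhx1os. Tests of the change in the difference between days were not run with pairing.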

Additional observations from a re-analysis of the deposited data

Results flagged for a closer look

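The difference between knockout and control was in opposite directions on different days for Lhx1, with every knockout sample below all controls at days 0 and 2 and above them at day 3 (log2 -5.53, -4.20 and 2.24). The change itself was not tested, because the gene was chosen for it. Among the 69 list genes and Lhx1os, a test of the change in the difference between days (edgeR, adjusted p below 0.05; 0.0219% of all genes from day 0 to 2, 0.0383% from day 2 to 3 and 0.427% from day 0 to 3) was passed by 4 genes. The log2 difference of Mixl1 increased by 3.43 from day 0 to day 2 and by 4.97 from day 0 to day 3, ending without a called difference. The log2 difference of Cer1 increased by 6.89 from day 2 to day 3 and by 9.04 from day 0 to day 3. The value of 9.04 depends on the model's prior count, since Cer1 had no knockout count at day 0. The log2 difference of Frzb increased by 3.85 and 4.67 over the same intervals, and that of Cyp26a1 by 5.94 and 5.04. For Lhx1os the changes of 3.48 and 3.96 did not pass (adjusted p = 0.287 and 0.166, edgeR).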

How the results depend on the processing

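The Lhx1 differences and steps kept their direction, and moved by less than the spread within groups (0.91 on the log2 scale), under every alternative run: upper-quartile scaling, DESeq2, no low-count filter, no background term, summed transcripts, the longest transcript, HM1-derived lines only, each line or HM1 replicate left out, and #19 at day 2 left out, the last chosen after seeing the data. The spread of 0.91 is larger in size than the control steps (-0.82 and 0.69) and the knockout step from day 0 to day 2 (0.52). It therefore cannot show that these steps are stable. Among fits with 1 line or HM1 replicate left out, they reached -0.27, 0.14 and 0.05. The replicate block pairs the samples of a series over days. With it the control steps were -0.73 and 0.77, the knockout steps were 0.53 and 7.12, and no call of the Lhx1os steps changed. Counts of calls were less stable. List genes called at day 2 went from 8 to 17 with DESeq2, and at day 3 from 10 to 17 in HM1-derived lines only and to 21 without #19 at day 2. With 1 line or replicate left out they ranged from 3 to 9 at day 0, 3 to 15 at day 2 and 0 to 20 at day 3. Called neighbours went from 0 to 2 at day 0, 3 to 6 at day 2 and 1 to 5 at day 3 with DESeq2, and to 2 at day 0 and 6 at day 3 without #19 at day 2. They ranged over 0 to 1, 0 to 6 and 0 to 3 with 1 line or replicate left out. The cause of these changes was not tested. The share of all genes called in each run was not counted either, so they cannot be read as particular to list genes or neighbours. Counting each single named result once per alternative run, 98 values lost their call and 0 changed sign. Knockout values at days 0 and 2 rest on 15 counts or fewer per sample, and 3 samples per group limit every call.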
